A study of Mus musculus with 10 samples.

Results

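The genes described here are 10 regulators of the G1 phase of the cell cycle. They are the D-type cyclins Ccnd1, Ccnd2 and Ccnd3, the E-type cyclins Ccne1 and Ccne2, the cyclin-dependent kinases Cdk4 and Cdk6, the kinase inhibitors Cdkn1b (p27Kip1) and Cdkn2a (p16Ink4a and p19Arf), and the retinoblastoma gene Rb1. They were taken by name: every probe whose gene name, or current symbol through its accession, is one of these was used, which gave 19 of the 41143 probes. All 19 probes passed the filter on dim probes, and all 10 genes were among the 20663 genes tested.

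In G1, D-type cyclins bind Cdk4 or Cdk6 and start the phosphorylation of the Rb1 protein, and E-type cyclins with Cdk2 complete it, which frees E2F transcription factors to switch on S phase genes. p16Ink4a blocks Cdk4 and Cdk6, p27Kip1 acts mainly on the Cdk2 complexes, and p19Arf, made from another reading frame of the Cdkn2a gene, stabilises p53 by binding Mdm2. Mouse embryonic stem cells are known for a short G1 phase, with much cyclin E and little p16Ink4a, and G1 lengthens when they differentiate.

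The cells were J1, a mouse embryonic stem cell line, transfected with small interfering RNAs (siRNAs). In the 4 knockdown groups the siRNAs targeted Ino80, the ATPase of the INO80 chromatin remodelling complex, or Ino80b, Ino80c or Ino80e, which encode other subunits of that complex. The control group received non-targeting siRNA (NT). RNA was taken 96 hours after transfection, and each group held 2 samples that the design text calls biological replicates, so the 5 groups gave 10 single-colour arrays. Every group is the same line at the same time, and all of them, NT included, were transfected. An siRNA lowers its target without removing it. The target signal was 43.6% of NT in Ino80 knockdown, 24.9% in Ino80b knockdown, 19.7% in Ino80c knockdown and 43.4% in Ino80e knockdown, and the Ino80e change did not pass the test (adjusted p = 0.0815).

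Levels are log2 processed signals relative to the 75th percentile of the array. Differences are knockdown minus NT in limma's fit, with a standard error (SE), and a gene is called at an adjusted p under 0.05 over all genes of the comparison. A level belongs to its own probe, so levels are not compared between genes. Per array, 66.4% to 79.0% of the probes gave a signal well above background. The probes used for the 10 genes were well above background on all 10 arrays. The median difference over all genes was not 0: it was 0.17, 0.13, 0.25 and 0.19 in Ino80, Ino80b, Ino80c and Ino80e knockdown. By the slide barcodes, both NT arrays lay on 1 slide, the Ino80 and Ino80b arrays on another and the Ino80c and Ino80e arrays on the third, so slide and knockdown cannot be told apart in any comparison with NT. Of the pairs of knockdowns, Ino80 with Ino80b and Ino80c with Ino80e share a slide. In these bulk samples, fewer cells of a type and less RNA per cell cannot be told apart.

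Few of the 10 regulators were called. In Ino80 knockdown Cdkn2a rose and Ccnd3 fell, 2 of 10 genes called, where 12.2% of all genes were called. The same 2 genes were called in the same directions in Ino80b knockdown, beside 6.41% of all genes. Ccnd3 alone fell in Ino80c knockdown, beside 6.28% of all genes. None of the 10 was called in Ino80e knockdown, in which limma called 0 of the 20663 genes (0%), although 5899 genes, 4 of the 10 among them, had an unadjusted p under 0.05. In the mean of the 4 knockdown groups against NT, 3 were called, Cdkn2a higher and Ccnd3 and Cdkn1b lower, beside 18.3% of all genes. Counts this small lie near the share called among all genes. The arrays of the knockdown and of NT did not overlap for 9, 8, 5 and 7 of the 10 genes in Ino80, Ino80b, Ino80c and Ino80e knockdown, beside 54%, 58.4%, 60.2% and 57.8% of all genes. The 4 comparisons share the same 2 NT arrays and so are not separate evidence for one another. The median difference of the 10 genes was -0.32, 0.15, 0.23 and -0.08 in Ino80, Ino80b, Ino80c and Ino80e knockdown. Relative to the median of all genes it was -0.48, 0.02, -0.02 and -0.27.

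**Figure D1:**
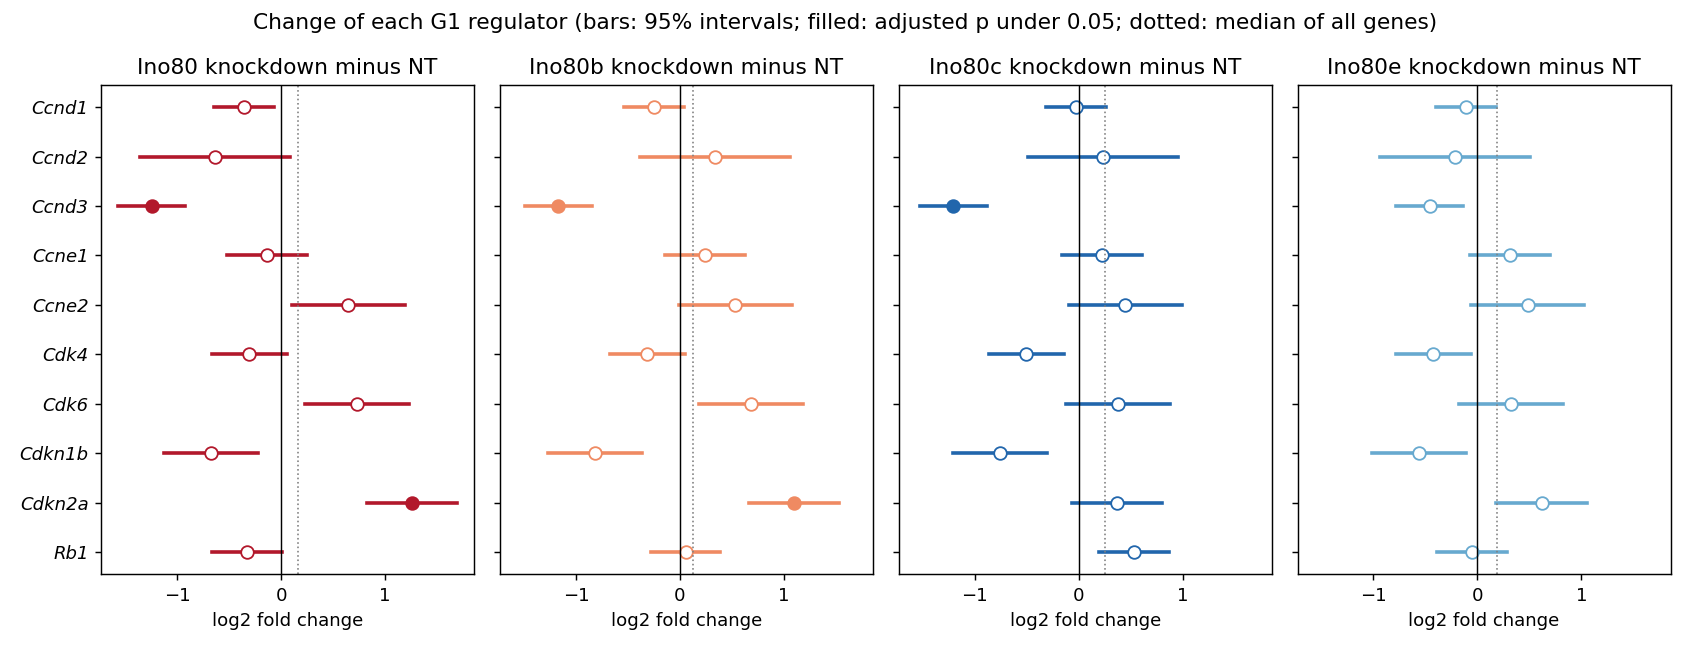
Difference of each of the 10 G1 regulators in each knockdown minus NT, on the log2 scale, with 95% intervals of the fit. Filled points passed the test and the dotted line is the median of all genes. Ccnd3 lies left of 0 in all 4 panels and is filled in 3, and Cdkn2a lies right of 0 in all 4 and is filled in 2.

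Ccnd3, which encodes cyclin D3, was measured by 1 probe at chr17:45735858-45735917 (mouse build mm7, plus strand). The log2 level of Ccnd3 was 3.05 and 2.80 in Ino80 knockdown, 3.07 and 2.94 in Ino80b knockdown, 2.99 and 2.94 in Ino80c knockdown and 3.71 and 3.72 in Ino80e knockdown, against 4.09 and 4.25 in NT. The 6 arrays of the first 3 knockdowns lay together at the bottom, Ino80e knockdown stood between, and no knockdown array reached an NT array. Ccnd3 fell by 1.24 ± 0.14 (SE, adjusted p = 0.00433 by limma) in Ino80 knockdown, to 42.2% of NT. It fell by 1.17 ± 0.14 in Ino80b knockdown (adjusted p = 0.0137) and by 1.21 ± 0.14 in Ino80c knockdown (adjusted p = 0.0175), to 44.5% and 43.3% of NT. In Ino80e knockdown the difference was -0.46 ± 0.14, or 72.9% of NT, and did not pass the test (adjusted p = 0.103). Set against the median of all genes, these differences were -1.41, -1.29, -1.46 and -0.65.

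The knockdowns themselves were compared. Ccnd3 was lower in Ino80 than in Ino80e knockdown by a log2 difference of -0.79 ± 0.14 (adjusted p = 0.0326), although these groups lay on different slides and the call was lost without any 1 knockdown array. The like differences of Ino80b and of Ino80c against Ino80e knockdown, -0.71 and -0.75, did not pass the test (adjusted p = 0.0806 and 0.111), and the second of them is within 1 slide. Ino80, Ino80b and Ino80c knockdown were not distinguished: Ino80 minus Ino80b was -0.08, with a 95% interval from -0.40 to 0.25. The calls in Ino80b and Ino80c knockdown were lost when NT replicate 2 or either array of the knockdown was left out, and with only the 4 arrays compared the adjusted p was 0.117, 0.142 and 0.146 in Ino80, Ino80b and Ino80c knockdown. The direction was the same in all 19 alternatives of each comparison.

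A difference of 2 probes on 1 array does not depend on the scaling between arrays, and its size alone has no meaning because the probes differ. The log2 signal of Ccnd3 minus that of Ccnd1 was 1.96 and 1.92 in Ino80 knockdown, 1.92 and 1.90 in Ino80b knockdown, 1.65 and 1.64 in Ino80c knockdown and 2.49 and 2.47 in Ino80e knockdown, against 2.76 and 2.89 in NT. Relative to Ccnd1, Ccnd3 was lower on all 8 knockdown arrays than on both NT arrays. Against Ccnd2, whose NT arrays lay far apart, the separation was not complete. Ccnd3 minus Ccnd2 was 3.05 and 3.07 in Ino80 knockdown, 2.12 and 2.20 in Ino80b knockdown, 1.97 and 2.47 in Ino80c knockdown and 3.24 and 3.61 in Ino80e knockdown, against 3.18 and 4.15 in NT. Here both Ino80e arrays lay between the NT arrays.

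**Figure D2:**
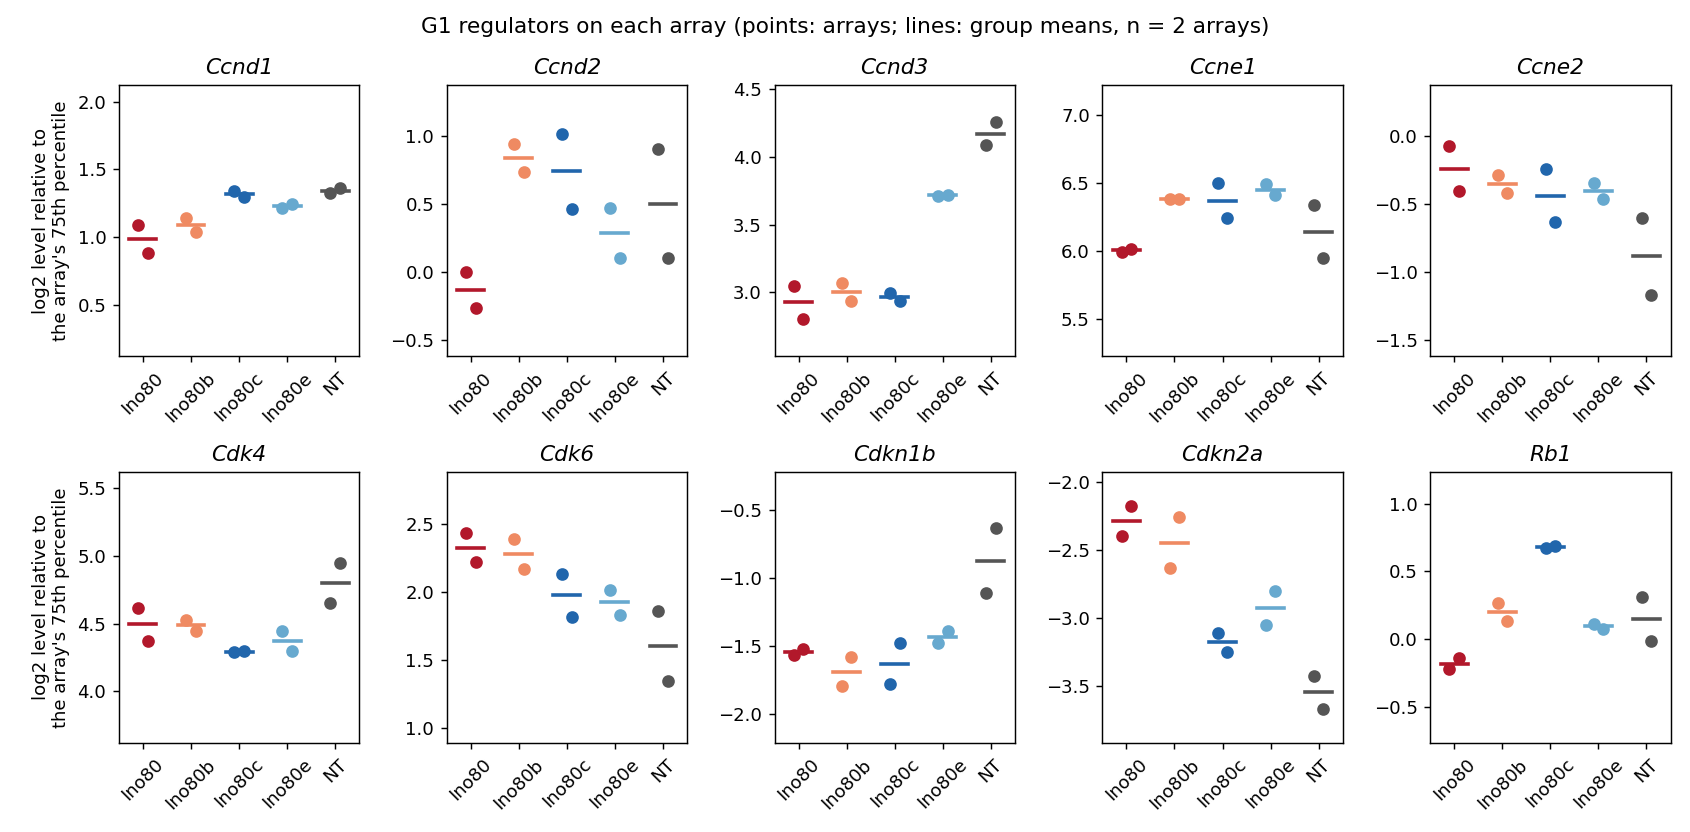
Log2 level of the 10 G1 regulators on each of the 10 arrays, relative to the array's 75th percentile. Points are arrays and lines are group means of 2 arrays, and every panel spans the same range of 2 log2 units. Ccnd3 shows the lowest levels in Ino80, Ino80b and Ino80c knockdown and Cdkn2a the highest in Ino80 and Ino80b knockdown, while the NT arrays of Ccnd2 and Cdk6 lie well apart.

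The RefSeq promoter table (build GRCm38.p6) matched 6 of the 10 genes, with 8 transcription starts. The 250 bases before both Ccnd3 starts are shown because this gene carried the most frequent call. They lie at chr17:47504801-47505050 and chr17:47593217-47593466 on the plus strand, and capitals mark matches to the motifs listed after them.
Ccnd3 upstream start: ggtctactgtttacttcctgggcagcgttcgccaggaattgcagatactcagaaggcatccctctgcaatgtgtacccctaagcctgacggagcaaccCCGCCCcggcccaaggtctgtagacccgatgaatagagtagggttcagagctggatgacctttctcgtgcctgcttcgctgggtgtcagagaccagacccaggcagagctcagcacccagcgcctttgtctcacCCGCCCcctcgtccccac
Ccnd3 downstream start: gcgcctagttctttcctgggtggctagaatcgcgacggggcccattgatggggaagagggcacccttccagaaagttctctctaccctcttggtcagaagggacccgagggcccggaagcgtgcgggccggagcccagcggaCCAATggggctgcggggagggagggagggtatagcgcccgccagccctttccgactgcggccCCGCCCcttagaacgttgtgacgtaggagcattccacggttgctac

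Both strands were searched for E2F sites (TTTGGCGC, TTTCCCGC or TTTCGCGC), the YY1 site AANATGGC, the GC box GGGCGG, the CCAAT box and the E box CACGTG. YY1 is a known partner of the INO80 complex in human cells. Of the 32851 promoters in the table, 1.5% held an E2F site, 3.9% a YY1 site, 32.7% a GC box, 33.8% a CCAAT box and 6.0% an E box in these 250 bases. The Ccnd3 windows held 2 and 1 GC boxes, and the downstream one also held 1 CCAAT box. No E2F, YY1 or E box letters were found in either. No 2 matches overlapped in the windows shown. These matches are descriptions of letters, and no binding was measured.

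Ccnd1, the cyclin D1 gene, had 1 probe printed as 10 spots, placed at 7568179 to 7568238 of the unplaced part of chromosome 7 on mm7. Its log2 level was 1.09 and 0.88 in Ino80 knockdown, 1.15 and 1.04 in Ino80b knockdown, 1.34 and 1.30 in Ino80c knockdown and 1.22 and 1.24 in Ino80e knockdown, against 1.32 and 1.36 in NT. The Ino80 and Ino80b arrays were the lowest 4. The largest of these differences was -0.36 ± 0.12 in Ino80 knockdown (adjusted p = 0.101). None of the 4 passed the test.

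Ccnd2, the cyclin D2 gene, is measured by 3 probes on chromosome 6 of mm7. The 60 bases of the probe used and of one other are shown because they lie apart on the gene and gave like differences, the first at chr6:127163669-127163728 and the second at chr6:127173178-127173237 (minus strand).
Ccnd2 probe used: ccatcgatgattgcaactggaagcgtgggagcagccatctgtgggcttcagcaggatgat
Ccnd2 other probe: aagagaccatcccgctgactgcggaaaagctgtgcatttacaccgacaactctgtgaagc

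On the probe used, Ccnd2 had a log2 level of -0.0042 and -0.26 in Ino80 knockdown, 0.94 and 0.74 in Ino80b knockdown, 1.02 and 0.46 in Ino80c knockdown and 0.47 and 0.10 in Ino80e knockdown, against 0.90 and 0.10 in NT. Ino80 knockdown was the lowest group, and the 2 NT arrays lay far apart and enclosed both Ino80e arrays. The difference from NT was -0.64 ± 0.31 in Ino80 knockdown (adjusted p = 0.205), and the other 3 knockdowns ranged from -0.21 to 0.34. All 3 probes were negative in Ino80 knockdown, from -0.78 to -0.51, and positive in Ino80b and Ino80c knockdown. Within their shared slide, Ino80 minus Ino80b was -0.97 ± 0.31 and did not pass the test (adjusted p = 0.417).

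Neither E-type cyclin was called in any comparison with NT. Ccne2, the cyclin E2 gene, had a log2 level of -0.08 and -0.40 in Ino80 knockdown, -0.29 and -0.42 in Ino80b knockdown, -0.24 and -0.63 in Ino80c knockdown and -0.34 and -0.47 in Ino80e knockdown, against -0.61 and -1.17 in NT. Its group mean was higher than NT in every knockdown, and 1 Ino80c array fell between the NT arrays. The differences lay between 0.45 and 0.65, with SE 0.23 and adjusted p between 0.107 and 0.227, and the second Ccne2 probe was also positive in all 4, from 0.23 to 0.77. In Ino80 knockdown 4 of 19 alternatives called Ccne2, with adjusted p from 0.0239 to 0.371 over all of them.

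Ccne1, the cyclin E1 gene, had log2 levels of 6.00 and 6.02 in Ino80 knockdown, 6.38 on both arrays of Ino80b knockdown, 6.50 and 6.24 in Ino80c knockdown and 6.49 and 6.41 in Ino80e knockdown, against 6.34 and 5.95 in NT. The NT arrays enclosed both Ino80 arrays, and differences ran from -0.14 to 0.31 with no call. Before scaling, this very bright probe gave 68633 and 53014 intensity units in NT, and every knockdown array lay between these values. The 75th percentile signal that scaled the arrays was 849 and 859 units in NT and 722 and 666 in Ino80e knockdown. Flattening of such bright signals was not tested. A second, dimmer Ccne1 probe gave -0.47, -0.18, -0.23 and -0.04 in Ino80, Ino80b, Ino80c and Ino80e knockdown, so the sign of Ccne1 differs between probes in the last 3. Both probes carry the same file coordinates, chr7:34990690-34990713.

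The kinase partner Cdk4 lay lower in every knockdown without passing the test. Its probe, at chr10:126562389-126562448, is shown because it also lists another accession, so its signal may be shared.
Cdk4 probe: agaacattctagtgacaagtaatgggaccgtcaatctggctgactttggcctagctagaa

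Cdk4 had log2 levels of 4.62 and 4.37 in Ino80 knockdown, 4.52 and 4.45 in Ino80b knockdown, 4.29 on both arrays of Ino80c knockdown and 4.45 and 4.30 in Ino80e knockdown, against 4.65 and 4.95 in NT. No knockdown array reached an NT array, although Ino80 replicate 1 lay close to NT replicate 1. The differences were -0.30, -0.31, -0.51 and -0.42 (SE 0.15 each), and the smallest adjusted p was 0.0852, in Ino80c knockdown.

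For Cdk6, the other partner of D-type cyclins, the answer depended on the probe. The brightest probe, from a cDNA clone and not the RefSeq transcript, at chr5:3535293-3535352, gave 2.43 and 2.22 in Ino80 knockdown, 2.39 and 2.17 in Ino80b knockdown, 2.13 and 1.82 in Ino80c knockdown and 2.01 and 1.83 in Ino80e knockdown, against 1.86 and 1.34 in NT. On it both arrays of Ino80 and of Ino80b knockdown lay above NT, and the other 2 groups overlapped NT. Its differences of 0.73, 0.68, 0.38 and 0.32 (SE 0.21 each) did not pass the test, with a smallest adjusted p of 0.0660.

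A second Cdk6 probe is shown because its file coordinates, chr5:3479226-3521510, span far more than its 60 bases, as for a probe across an exon junction.
Cdk6 junction probe: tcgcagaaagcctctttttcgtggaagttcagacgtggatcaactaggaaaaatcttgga
It gave differences of 0.21, -0.17, 0.04 and 0.14 in Ino80, Ino80b, Ino80c and Ino80e knockdown. The third and dimmest Cdk6 probe gave -0.27, -0.57, -0.57 and -0.54. With the mean of the 3 probes in place of the brightest, Cdk6 turned negative in Ino80b, Ino80c and Ino80e knockdown (-0.02, -0.05 and -0.03), so no direction is given for Cdk6.

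Of the inhibitors, Cdkn2a was the one that rose. Its probe at chr4:88678367-88678426 (minus strand) was printed as 10 spots and lists accessions of both products of the gene, so p16Ink4a and p19Arf transcripts were not told apart. The probe had log2 levels of -2.39 and -2.17 in Ino80 knockdown, -2.63 and -2.26 in Ino80b knockdown, -3.11 and -3.25 in Ino80c knockdown and -3.05 and -2.80 in Ino80e knockdown, against -3.42 and -3.67 in NT. All 8 knockdown arrays lay above both NT arrays, with Ino80 and Ino80b knockdown on top. The signal was low throughout, 179 and 185 intensity units in Ino80 knockdown against 79.1 and 67.6 units in NT, before scaling.

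Cdkn2a rose 2.40-fold in Ino80 knockdown (1.26 ± 0.18, adjusted p = 0.00962) and 2.15-fold in Ino80b knockdown (1.10 ± 0.18, adjusted p = 0.0256). Its size depended on the processing: over 19 alternatives it ranged from 0.78 to 1.38 in Ino80 and from 0.61 to 1.29 in Ino80b knockdown. The differences of 0.37 ± 0.18 in Ino80c knockdown (adjusted p = 0.217) and 0.62 ± 0.18 in Ino80e knockdown (adjusted p = 0.103) did not pass the test. Relative to the median of all genes the 4 differences were 1.10, 0.98, 0.12 and 0.43. The call in Ino80 knockdown was lost without Ino80 replicate 2 (adjusted p = 0.0575) and with only the arrays compared (0.117). The larger rise in Ino80 than in Ino80c or Ino80e knockdown was not established: those differences were 0.89 (95% interval 0.46 to 1.33, adjusted p = 0.0878) and 0.64 (0.21 to 1.08, adjusted p = 0.119). The call in Ino80b knockdown held in 10 of 19 alternatives, and its adjusted p there ranged from 0.0111 to 0.171. It was lost, among others, without any 1 of the Ino80b, Ino80c or Ino80e arrays or NT replicate 2.

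The Cdkn2a gene has a promoter for p19Arf upstream of that for p16Ink4a. The 250 bases before both starts in the table are shown because Cdkn2a was the only member that rose, at chr4:89294620-89294869 and chr4:89282193-89282442 (GRCm38.p6, minus strand), marked as for Ccnd3.
Cdkn2a upstream start: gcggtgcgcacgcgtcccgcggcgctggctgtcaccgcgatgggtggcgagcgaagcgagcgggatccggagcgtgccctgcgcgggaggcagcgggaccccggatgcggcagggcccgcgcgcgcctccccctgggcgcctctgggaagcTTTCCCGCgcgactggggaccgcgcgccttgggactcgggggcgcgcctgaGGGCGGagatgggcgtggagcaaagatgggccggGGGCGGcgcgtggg
Cdkn2a downstream start: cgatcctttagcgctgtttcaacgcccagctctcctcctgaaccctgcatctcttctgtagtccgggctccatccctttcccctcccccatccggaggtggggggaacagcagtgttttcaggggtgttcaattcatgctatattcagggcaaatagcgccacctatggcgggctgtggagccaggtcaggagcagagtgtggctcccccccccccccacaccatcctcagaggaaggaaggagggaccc
The upstream window held 1 E2F site, 99 bases before the start, and 2 GC boxes. Among the 8 member windows it was the only one with an E2F site. The downstream window held none of the 5 motifs.

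Cdkn1b, the p27Kip1 gene, was called in 1 comparison and by 1 of its 3 probes. The brightest, from a cDNA clone and not the RefSeq transcript, at chr6:134939519-134939578, gave -1.57 and -1.52 in Ino80 knockdown, -1.80 and -1.58 in Ino80b knockdown, -1.78 and -1.48 in Ino80c knockdown and -1.48 and -1.39 in Ino80e knockdown, against -1.11 and -0.63 in NT. All knockdown arrays lay below both NT arrays. The differences of -0.67, -0.82, -0.76 and -0.56 (SE 0.19 each) each missed the threshold, with adjusted p between 0.0519 and 0.121, and the mean of the 4 knockdowns fell by 0.70 ± 0.15 (adjusted p = 0.0265).

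The Cdkn1b probe printed as 10 spots, at chr6:134935407-134935465, is shown because it did not follow the brightest one.
Cdkn1b 10-spot probe: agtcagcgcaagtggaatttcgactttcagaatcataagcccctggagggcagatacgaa
It gave -3.45 and -3.38 in Ino80 knockdown, -3.59 and -3.77 in Ino80b knockdown, -3.76 and -3.59 in Ino80c knockdown and -3.73 and -3.85 in Ino80e knockdown, against -3.66 and -3.61 in NT. The groups lay close together, with differences of 0.22, -0.04, -0.03 and -0.15 and adjusted p over all probes between 0.287 and 0.874. The third probe was well above background on 6 of 10 arrays and had a wide spread. For the mean of the 4 knockdowns the 10-spot probe gave -0.0015 (adjusted p over all probes = 0.994), and the mean of all 3 probes gave -0.34 (adjusted p = 0.473). The Cdkn1b call held in 10 of 18 alternatives, and without NT replicate 2 the difference was -0.46 (adjusted p = 0.170).

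**Figure D3:**
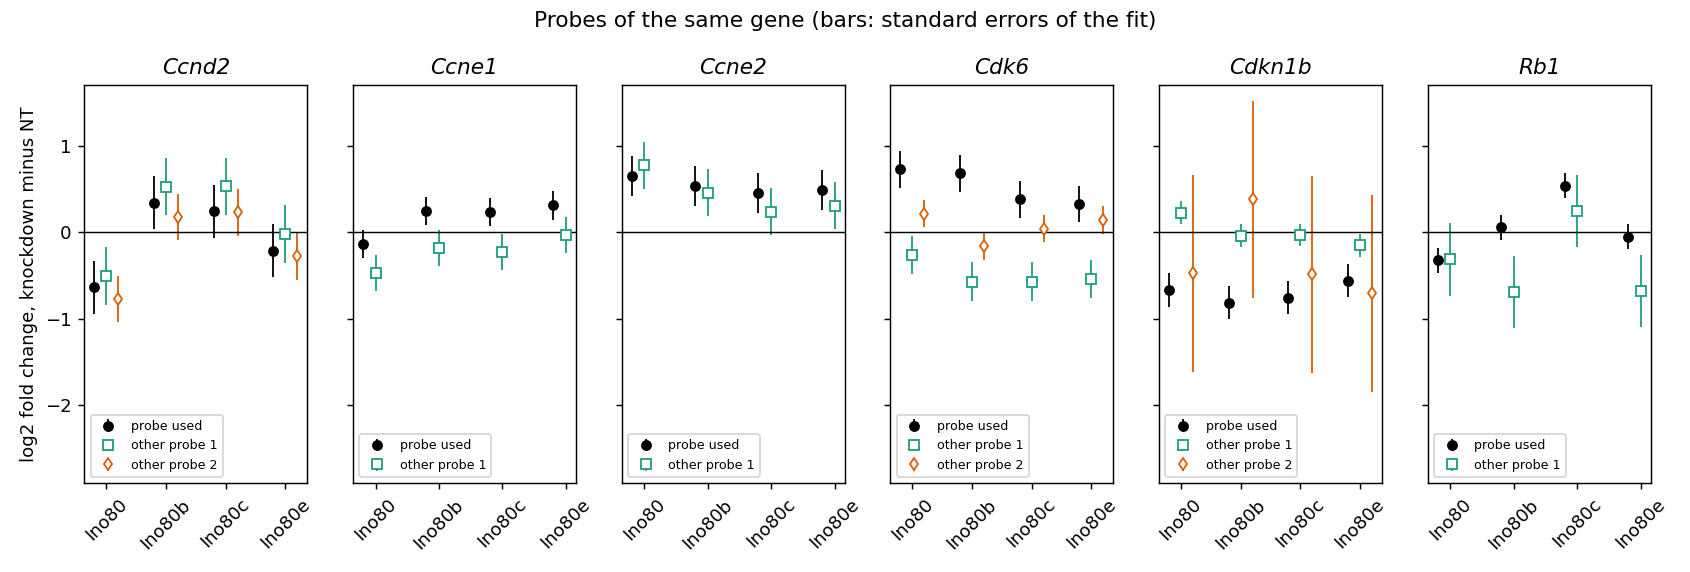
Log2 difference, knockdown minus NT, of every probe of the 6 genes with more than 1 probe, with standard errors of the fit. Black points are the probes used. The probes of Ccnd2 and Ccne2 follow each other, whereas the probe used for Cdk6 lies above and that for Cdkn1b below the other well measured probes of the same gene.

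Rb1, the pocket protein that these kinases phosphorylate, was measured on its brighter probe (10 spots, chr14:67877318-67877377). Its log2 level was -0.22 and -0.14 in Ino80 knockdown, 0.27 and 0.14 in Ino80b knockdown, 0.67 and 0.69 in Ino80c knockdown and 0.11 and 0.08 in Ino80e knockdown, against 0.31 and -0.02 in NT. On this probe Ino80c knockdown stood above and Ino80 knockdown below all other groups. Neither passed the test against NT (0.53 ± 0.14, adjusted p = 0.0670, and -0.33 ± 0.14, adjusted p = 0.168), but Rb1 was lower in Ino80 than in Ino80c knockdown by a log2 difference of -0.86 ± 0.14 (adjusted p = 0.0477). These groups lay on different slides, and 1.04% of all genes were called between them. A second, dim Rb1 probe gave -0.32 in Ino80 and 0.24 in Ino80c knockdown. Its mean levels were -5.01, -5.39, -4.45 and -5.37 in Ino80, Ino80b, Ino80c and Ino80e knockdown, against -4.69 in NT. On that probe Ino80b and Ino80e knockdown thus lay below Ino80 knockdown. It was well above background on 1 of 2 arrays in each of Ino80b and Ino80e knockdown. The call was lost without any 1 array of a knockdown group, under median centring, without the filter on dim probes, with the mean of the probes or with only the arrays compared.

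Between knockdowns, those of Rb1 and of Ccnd3 above were the only calls among the 10 genes: 1 of 10 for Ino80 against Ino80c, and 1 of 10 for Ino80 against Ino80e, where 3.08% of all genes were called. In both pairs that share a slide none of the 10 was called, beside 0.0678% of all genes for Ino80 against Ino80b and 0.0339% for Ino80c against Ino80e. In each of them 2 of the 10 had an unadjusted p under 0.05. Of all 20663 genes, 1850 had such a p for Ino80 against Ino80b and 2210 for Ino80c against Ino80e. For Ino80b against Ino80c and against Ino80e none was called either (0.029% and 0.697% of all genes), again with 2 at an unadjusted p under 0.05. There, 2102 and 3001 of the 20663 genes had an unadjusted p under 0.05.

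Over all 5 groups, limma's moderated F test passed for Ccnd3 (adjusted p = 0.0139) and Cdkn2a (adjusted p = 0.0348), beside 5.27% of all genes. Among 4331 genes with an SD of at least 0.5 over the arrays, those most like Ccnd3 included Parvb, Klk1b3, Bmp4 and Ccdc3 (Pearson r from 0.982 to 0.992 over 10 arrays). Bmp4, which encodes a secreted signalling protein, fell by 2.67 in Ino80, 2.26 in Ino80b and 2.40 in Ino80c knockdown, and its difference was -0.50 in Ino80e knockdown (adjusted p = 0.00174, 0.00850, 0.0134 and 0.125). The genes most like Cdkn2a were Aim1, Gbp3, Ptpn18, 2810032E02Rik and Gbp2b (r from 0.930 to 0.945). These correlations rest on group differences shared by the same 10 arrays and are given as a description.

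The other genes of G1 and S phase control showed calls in both directions. Of 36 measured genes in this list, 5 rose and 3 fell in Ino80 knockdown, and 2 rose and 2 fell in Ino80b knockdown. In Ino80c knockdown 2 rose, and none was called in Ino80e knockdown. These calls were 22.2%, 11.1%, 5.6% and 0% of the list, beside 12.2%, 6.41%, 6.28% and 0% of all genes. The list's median difference was 0.07, 0.08, 0.19 and 0.20, below or near that of all genes. Fbxo4, an F-box protein reported to direct the destruction of cyclin D1, rose in 3 knockdowns, by 1.19 ± 0.13, 0.89 and 0.78 in Ino80, Ino80b and Ino80c knockdown (adjusted p = 0.00457, 0.0206 and 0.0284). Fbxo4 had log2 levels of -0.13 and -0.08 in Ino80 knockdown against -1.15 and -1.45 in NT, and the groups did not overlap.

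Cdk2, the kinase of cyclin E, fell by 0.77 ± 0.17 in Ino80 knockdown (adjusted p = 0.0299) and by 0.78 ± 0.17 in Ino80b knockdown (adjusted p = 0.0431). Its log2 level was -1.45 and -1.92 in Ino80 knockdown and -1.68 and -1.70 in Ino80b knockdown, against -0.93 and -0.90 in NT. The second Cdk2 probe was also negative in all 4 knockdowns. Rbl2, the Rb1 relative p130, fell by 1.29 ± 0.23 in Ino80 knockdown (adjusted p = 0.0175), while its relative Rbl1 (p107) differed by 0.47 ± 0.34 there (adjusted p = 0.384). The Rbl2 differences of -0.95, -0.77 and -0.69 in Ino80b, Ino80c and Ino80e knockdown were not called.

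Among the E2F factors that Rb1 and its relatives bind, E2f2 fell by 0.96 ± 0.18 in Ino80 and by 0.84 ± 0.18 in Ino80b knockdown (adjusted p = 0.0197 and 0.0435), and differed by 0.57 in Ino80e knockdown (adjusted p = 0.108). Its log2 level was 0.29 and 0.42 in Ino80 knockdown, 0.47 and 0.48 in Ino80b knockdown, 0.81 and 0.48 in Ino80c knockdown and 1.86 and 1.91 in Ino80e knockdown, against 1.52 and 1.10 in NT. E2f2 was thus lowest in Ino80 knockdown and highest in Ino80e knockdown, a difference of -1.53 ± 0.18 (adjusted p = 0.00914), and Ino80b minus Ino80e was -1.41 ± 0.18 (adjusted p = 0.0270). The atypical E2F gene E2f7 rose in Ino80 and Ino80b knockdown (0.67 and 0.62), and E2f6 and E2f5 rose in Ino80 knockdown (0.94 and 0.53). A second E2f5 probe gave 0.07 in Ino80 knockdown and had the opposite sign in Ino80b and Ino80e knockdown. The second probes of E2f6 and E2f7 gave 0.32 and 0.43 in Ino80 knockdown.

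The inhibitor Cdkn1c (p57Kip2) rose in Ino80c knockdown by 0.85 ± 0.16 (adjusted p = 0.0317), and was lower in Ino80 than in Ino80c knockdown by a log2 difference of -1.20 ± 0.16 (adjusted p = 0.0234). Cdkn1a (p21) had differences between -0.61 and -0.45 with SE 0.33, and its NT arrays lay apart, at -0.11 and 0.89. Skp2, the ubiquitin ligase subunit that marks p27Kip1 for destruction, differed by -0.18 to -0.09 and was not called. Cables1, which binds cyclin-dependent kinases, rose by 1.50 ± 0.31 in Ino80 knockdown (adjusted p = 0.0265). Its differences of 0.98, 0.95 and 1.06 in Ino80b, Ino80c and Ino80e knockdown were not called.

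**Figure D4:**
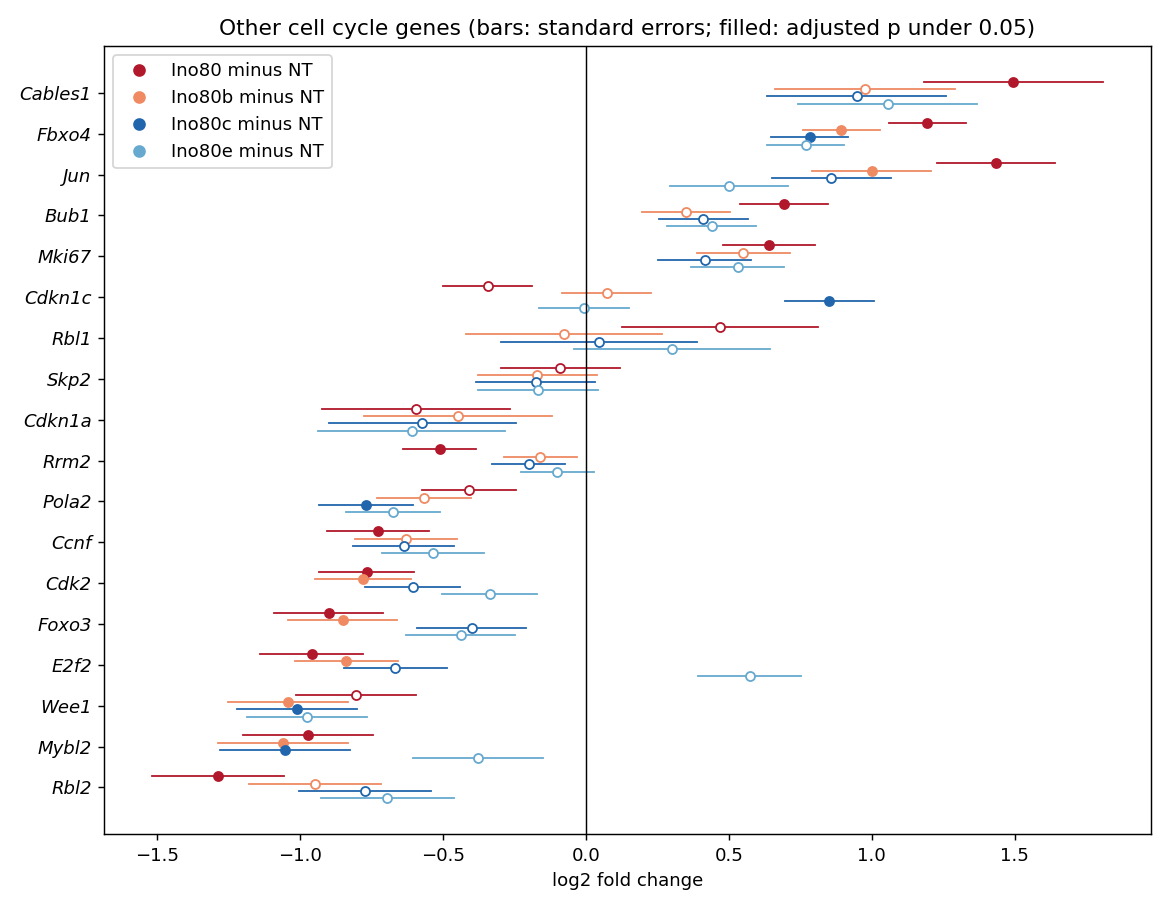
Log2 difference, knockdown minus NT, of 18 cell cycle genes outside the 10 regulators, with standard errors. Filled points passed the test. Fbxo4 lies near or above 0.77 in all 4 knockdowns, and E2f2 is a gene whose Ino80e point lies on the other side of 0 from the other 3.

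Known regulators of D-type cyclins and of the Cdkn2a locus formed another list. Of its 30 genes, 1 rose and 1 fell in Ino80 and in Ino80b knockdown, 6.7% of the list beside 12.2% and 6.41% of all genes, and none was called in the other 2 knockdowns. The median difference of the list was -0.16, 0.01, 0.01 and -0.03 in Ino80, Ino80b, Ino80c and Ino80e knockdown, and it lay below that of all genes by a difference of -0.32, -0.12, -0.25 and -0.22. Jun, a transcription factor subunit known to act on Ccnd1, rose by 1.43 ± 0.21 in Ino80 and by 1.00 ± 0.21 in Ino80b knockdown (adjusted p = 0.00934 and 0.0401). Foxo3, known to switch on Cdkn1b, fell by 0.90 ± 0.19 and 0.85 ± 0.19 in the same knockdowns (adjusted p = 0.0275 and 0.0469). Both genes were dim. Before scaling, Jun gave 110 and 77.9 intensity units in NT and 246 and 274 in Ino80 knockdown. Foxo3 gave 106 and 130 units in NT and 79.7 and 53.8 in Ino80 knockdown.

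Downstream, E2F target genes of S phase entry were mostly uncalled. Of 34 measured genes, 2 fell in Ino80 knockdown (Mybl2 and Rrm2), 1 in Ino80b knockdown (Mybl2) and 2 in Ino80c knockdown (Mybl2 and Pola2). None rose. These calls were 5.9%, 2.9% and 5.9% of the list, beside 12.2%, 6.41% and 6.28% of all genes. Mybl2 (B-Myb) fell by 0.97, 1.06 and 1.05 (SE 0.23 each, adjusted p = 0.0370, 0.0434 and 0.0444). The second Pola2 probe had the opposite sign in Ino80c knockdown. Of 30 genes of S, G2 and M phase, Bub1 and Mki67 rose (0.69 and 0.64) and Ccnf fell (by 0.73) in Ino80 knockdown. The second Mki67 probe gave 0.25, 0.07, -0.11 and -0.06 in Ino80, Ino80b, Ino80c and Ino80e knockdown. Wee1, the kinase that holds Cdk1 inactive, fell by 1.04 in Ino80b and by 1.01 in Ino80c knockdown. Its differences in Ino80 and Ino80e knockdown, -0.80 and -0.98, were alike but not called. The calls of the S, G2 and M phase list were 10%, 3.3% and 3.3% of it in Ino80, Ino80b and Ino80c knockdown. Of all genes, 12.2%, 6.41% and 6.28% were called there. None of either list was called in Ino80e knockdown, in which no gene at all was called.

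Markers of the state of the cells were also called in Ino80, Ino80b and Ino80c knockdown. Of 17 embryonic stem cell markers, all well above background on every array, 8 fell in Ino80, 7 in Ino80b and 6 in Ino80c knockdown. They were 47.1%, 41.2% and 35.3% of the list, beside 12.2%, 6.41% and 6.28% of all genes. None was called in Ino80e knockdown, in which limma called no gene at all. Nanog fell by 1.35, 1.26 and 1.05 in the first 3, Pou5f1 fell by 0.74 and 0.72 in Ino80 and Ino80b knockdown, and Sox2 lay between -0.13 and 0.17. Of 19 markers of differentiated derivatives, 7 rose and 5 fell in Ino80 knockdown, 3 rose and 3 fell in Ino80b knockdown and 2 rose in Ino80c knockdown. These calls were 63.2%, 31.6% and 10.5% of that list, beside 12.2%, 6.41% and 6.28% of all genes. The summed level of these 19 markers adds linear signals, in multiples of the signal that scaled each array, so bright markers weigh most. The sum was 126 and 146 in Ino80 knockdown, 114 and 124 in Ino80b knockdown and 104 and 92.5 in Ino80c knockdown. In Ino80e knockdown it was 72.9 and 74.0, against 57.4 and 52.8 in NT. The list's median log2 difference was 0.30, 0.18, 0.29 and 0.33 in Ino80, Ino80b, Ino80c and Ino80e knockdown. The order of the groups by the sum was thus not that by the median. The summed level of 21 fibroblast feeder markers was 42.8 to 55.7 over all arrays, with 48.9 to 55.7 in NT, and 16 to 21 of them were well above background on an array. Of these, 6 rose in Ino80, 2 in Ino80b and 3 in Ino80c knockdown, Dcn the most (2.30, 1.40 and 2.08), while Thy1 was not called. The calls were 28.6%, 9.5% and 14.3% of the feeder list, beside 12.2%, 6.41% and 6.28% of all genes. Dcn was dim, at 22.6 and 24.6 intensity units in NT and 121 and 119 units in Ino80 knockdown before scaling. The second Col1a1 probe had the opposite sign to the probe used in Ino80b, Ino80c and Ino80e knockdown. The part of these markers in the levels of Ccnd3 and Cdkn2a was not tested.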

How the data were processed

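RNA from 10 samples was hybridised to Agilent 4x44K single-colour arrays. Per the file headers, the authors quantified spots with Feature Extraction 9.5.3.1, and the deposited processed signal is a background-subtracted intensity, not scaled between arrays. The labels name the dye Cy5, whereas the files hold the green channel. The authors' deposited table holds log2 values with an unstated scaling, with 1 constant per array relative to the log2 mean signal, and served as an alternative; its column medians lay between 6.76 and 6.87.

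Control and outlier-flagged spots were left out, spots of a probe were averaged on the log2 scale, and each array was scaled by subtracting its 75th percentile. A probe was kept (29587 of 41143) where both arrays of some group had it well above background. Probes were named through their accession in a RefSeq table (GRCm38.p6), otherwise by the array's name, and probe coordinates are those of the files (mm7). Each gene was represented by its kept probe of highest mean. limma 3.58.1 was fitted to all 10 arrays with group only, with Benjamini-Hochberg adjustment over 20663 genes, and its fit was tested on simulated data.

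The 10 genes, the gene lists and the tests were chosen with earlier results of these data known. By rule, the text names all 10 genes, the called genes with the 4 largest differences of each other cell cycle list, 6 further G1 regulators, the 5 genes most like the 2 members of lowest F test p, the siRNA targets and the defining markers; other names were chosen after their values were seen. Some genes that this rule names are not reported here. The alternatives were other scalings and background correction, the authors' table, no filter, the mean of a gene's probes, another prior, only the arrays compared, replicate number as a block, and each array left out. Fits with few arrays limit the precision. Proteins and splice forms were not measured.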

Additional observations from a re-analysis of the deposited data

Results flagged for a closer look

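Among the 10 genes, 2 differed between knockdowns by the test of the difference itself. Rb1 was lower in Ino80 than in Ino80c knockdown, with a log2 difference of -0.86 (adjusted p = 0.0477), and Ccnd3 was lower in Ino80 than in Ino80e knockdown, with a log2 difference of -0.79 (adjusted p = 0.0326). Both pairs lie on different slides, so slide and siRNA cannot be told apart in them. Groups of 2 arrays are too small for a check on a sample far from its group.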

How the results depend on the processing

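For single genes against NT, 827 values kept their direction and their side of the threshold under the alternatives, 59 newly passed it, 30 no longer passed it and 24 reversed. Ccnd3 kept its direction throughout. The number of the 10 genes called in Ino80, Ino80b and Ino80c knockdown against NT and in the mean of the 4 knockdowns, 2, 2, 1 and 3 in the values reported, was 5, 4, 3 and 6 with normexp, 4, 4, 4 and 6 with a trended robust prior and 6, 5, 3 and 5 with the replicate block. It was 5, 3, 3 and 5 in the authors' table, and 0 in each of the first 3 with only the arrays compared, which could not be run for the mean. Without the filter it was 1 in Ino80b knockdown. For Ino80e knockdown it was 3 with normexp and 2 in the authors' table. Between knockdowns, the 1 call of Ino80 against Ino80c became 0 under median centring, without the filter, with the mean of probes and with only the arrays compared, and 2 in the authors' table. The 1 call of Ino80 against Ino80e became 0 with quantile normalization, without the filter and with only the arrays compared, and 2 in the authors' table. For Ino80b and for Ino80c against Ino80e, 1 gene was called with normexp, the authors' table and the trended prior, and for Ino80b against Ino80e also 1 with the block.

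Leaving out 1 array gave 1 to 5 calls in Ino80, 0 to 4 in Ino80b, 0 to 4 in Ino80c and 0 in Ino80e knockdown against NT, 0 to 6 for the mean, 0 to 1 for Ino80 against Ino80c and against Ino80e, and 0 for the other pairs. Without NT replicate 2 no gene was called in Ino80b or Ino80c knockdown or in the mean, and without NT replicate 1 the counts were 5, 4, 4 and 6. Over all genes the calls ranged from 0 to 4888 in Ino80 (2531 reported), 0 to 3590 in Ino80b (1325), 0 to 4253 in Ino80c (1297) and 0 to 5421 in Ino80e knockdown (0). Rb1 in Ino80b knockdown was -0.011 under median centring, -0.085 in the authors' table and -0.32 with the mean of probes, and for the mean of the 4 knockdowns -0.045, -0.089 and -0.155. With the mean of probes Cdk6 was -0.019, -0.052 and -0.027 in Ino80b, Ino80c and Ino80e knockdown and Ccne1 -0.00055 in Ino80c knockdown. Ccne1 for the mean of the 4 was -0.035 with quantile normalization and -0.034 with the mean of probes. With 1 array left out, Ccne1 ranged from -0.33 to 0.059 in Ino80 knockdown and -0.033 to 0.36 in the mean, Ccnd2 from -0.063 to 0.74 in Ino80b, -0.16 to 0.64 in Ino80c and -0.62 to 0.19 in Ino80e knockdown and -0.47 to 0.33 in the mean, and Rb1 from -0.11 to 0.22 in Ino80b and -0.21 to 0.11 in Ino80e knockdown and -0.11 to 0.22 in the mean. The cause was not tested.

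Samples of the same replicate number correlated at r 0.0041 to 0.32 over 10 pairs of groups, 8 of them over 0.1, but with 2 numbers a pairing is not established, so the block's calls stand here alone. They added Ccne2, Cdk6 and Cdkn1b in Ino80 and Ino80b knockdown, Ccnd2 in Ino80 knockdown, Cdkn1b and Rb1 in Ino80c knockdown, and Ccne2 and Cdk6 in the mean. The number 1 array was the higher in 5 of 5 groups for Ccnd2, Ccne2 and Cdk6 and in 0 of 5 for Cdkn1b. The fit of all 10 arrays leaves 5 residual degrees of freedom, and low signals such as Cdkn2a's limit what these arrays can show.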
